A study of Rattus norvegicus with 6 samples.

Results

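The genes described here are 6 nuclear genes whose products shape, clear or build mitochondria: Opa1, Dnm1l, Pink1, Park7, Ppargc1a and Tfam. They were taken by their Ensembl IDs, each kept because its chromosome in the files was the listed one. All 6 of 6 were kept, of 32552 genes in the files. Male Sprague-Dawley rats gave 2 groups of 3 samples of striatum, the part of the basal ganglia that receives most of their input, and RNA selected by its poly(A) tail was sequenced. Control rats were given 0.9% NaCl and Mn-exposed rats MnCl2 at 25 mg/kg, both into the peritoneal cavity over 15 days. Label numbers name the samples, which are control 1, 2 and 4 and Mn-exposed 13, 14 and 17. The sources used here do not give the rats' age or the number of injections, and the labels do not say that each sample came from its own rat, so a p-value here speaks only of sample-to-sample spread, which may be technical.

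Mitochondria form a network that is remodelled by fusion and fission. OPA1 is the dynamin-like GTPase that fuses the inner membrane, and DRP1, the product of Dnm1l, is the GTPase that constricts the outer membrane in fission. PINK1 is a kinase that builds up on damaged mitochondria and recruits the ubiquitin ligase Parkin, which marks them for mitophagy, and DJ-1, the product of Park7, guards against oxidative stress; loss of either gene causes early-onset Parkinson disease in humans. PGC-1α, the product of Ppargc1a, is a transcriptional coactivator that drives the making of new mitochondria. TFAM, a target of that programme, packages mitochondrial DNA (mtDNA) and starts its transcription. Manganese in excess collects in the basal ganglia, and the study's title places mitochondrial dynamics at the centre of its toxicity.

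Levels are given as CPM, each gene's counts as a part of the library's total, with TMM scaling to correct for differences in RNA composition. In Mn-exposed samples the fitted means of Opa1, Dnm1l and Tfam lay above those of the controls, and the means of Pink1, Park7 and Ppargc1a lay below. None of the 6 differences passed edgeR's quasi-likelihood test, the largest being that of Pink1, at 0.735 times the control level. In every gene the groups overlapped. The clearest pattern was between libraries: Opa1 and Dnm1l ranked the 6 libraries in one and the same order, and Pink1 and Park7 in another that was nearly its reverse.

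Total counts ran from 21754379 to 32569760 per library, and the 6 genes had between 338 and 9927 counts in each, so counting error alone gave a coefficient of variation of at most 5.44%. The libraries did not stand apart cleanly by group. Deviations from the group means correlated at 0.417 over genes between control 1 and Mn-exposed 13, and in these 2 libraries genes that span more of the chromosome had relatively lower levels. The slope of log2 CPM on gene span was -0.07 per 10-fold of span in control 1 and -0.04 in Mn-exposed 13, against 0.09 in Mn-exposed 14 and between -0.01 and 0.02 in the other 3 libraries. Over all 15252 genes tested, edgeR called 0 (0%) at an adjusted p of 0.05, with 1139 (7.47%) at an unadjusted p under 0.05, limma-voom called 0 and DESeq2 called 92 (0.403% of 22856 genes). Among the 6 genes each of these tools called 0, and 0 had an unadjusted p under 0.05. Groups did not overlap in 12.1% of genes tested and in 0 of these 6.

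**Figure D1:**
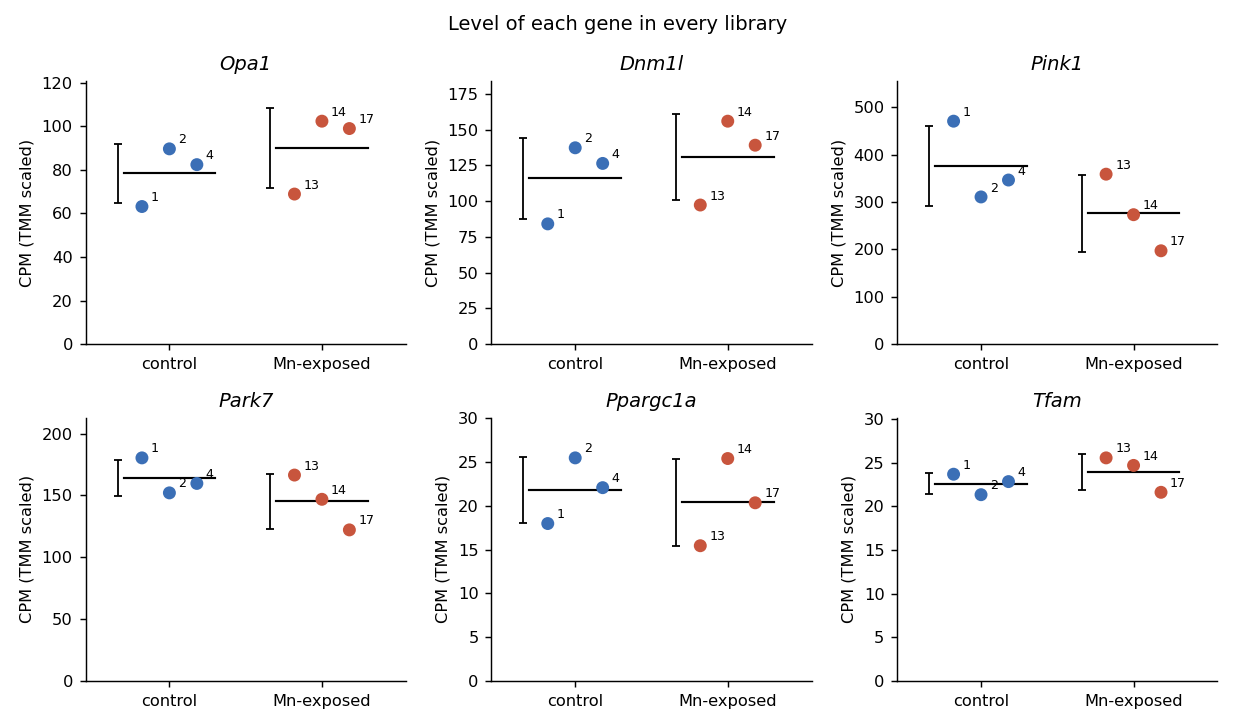
CPM with TMM scaling in each library for the 6 genes, with the label number beside each point, the group mean as a line and the SD (n = 3) as a bar. The y axes start at 0 and differ between genes. Groups overlap in every panel, and control 1 and Mn-exposed 13 are the 2 lowest libraries for Opa1, Dnm1l and Ppargc1a and the 2 highest for Pink1 and Park7.

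Per kilobase of exon, the scale on which levels of different genes can be set side by side, the order of the 6 genes was the same in every library. Pink1 came first, at 156 ± 34.8 CPM per kilobase for controls against 115 ± 33.6 after exposure (SD, n = 3 each). Park7 followed with 74.7 ± 6.66 for controls against 66.1 ± 10.1 after exposure, then Dnm1l with 43.9 ± 10.6 and 49.5 ± 11.4. Opa1 (24.2 ± 4.22 in controls), Tfam (14.9 ± 0.781) and Ppargc1a (7.98 ± 1.37) came last, so the mRNA of the coactivator was the scarcest of the set. Neighbours in this order lay farther apart than their SDs reach in both groups, with 1 exception: after exposure Park7 (66.1 ± 10.1) and Dnm1l (49.5 ± 11.4) met. Exonic length is that of the annotation in the files, which differs from the transcript actually made where an untranslated end is missing from it.

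The fusion gene Opa1 (ENSRNOG00000001717) is on chromosome 11, minus strand, at 74720254 to 74793803 of Rnor_6.0, with 30 exons after merging. Its level in control 1, 2 and 4 was 63.2, 89.6 and 82.4 CPM, and that in Mn-exposed 13, 14 and 17 was 68.9, 102 and 98.9 CPM. Mn-exposed 14 and 17 were above every control, while Mn-exposed 13 was below 2 of the 3. The control mean was 78.4 ± 13.7 CPM and the Mn-exposed mean 90.1 ± 18.4 CPM (SD, n = 3 each), with a log2 fold change of 0.20 (SE 0.20) and an adjusted p of 0.784 in edgeR's quasi-likelihood test. The log2 fold change was 0.07 without control 1 and 0.35 without Mn-exposed 13, so its size depended on single libraries.

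The fission gene Dnm1l (ENSRNOG00000001813) lies on the plus strand of the same chromosome, from 88830957 to 88880198, with 21 merged exons. Its level in control 1, 2 and 4 was 84.1, 137 and 126 CPM, and that in Mn-exposed 13, 14 and 17 was 97.3, 156 and 139 CPM. As with Opa1, control 1 was lowest and Mn-exposed 13 next, and Mn-exposed 14 was highest. The means of 116 ± 28.1 and 131 ± 30.2 CPM (SD, n = 3 each) gave a log2 fold change of 0.17 (SE 0.24, edgeR adjusted p = 0.842). Without control 1 the estimate was -0.01, and without Mn-exposed 13 it was 0.34.

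Opa1 counts divided by Dnm1l counts set a single fusion gene against a single fission gene, in a ratio that no scaling of the library can move. Other genes of fusion and fission were not examined. In control 1, 2 and 4 this ratio was 0.751, 0.653 and 0.652, and for Mn-exposed 13, 14 and 17 it was 0.708, 0.657 and 0.712. Both groups covered much the same range. On the log2 scale the groups differed by 0.02, with an SD of 0.12 in controls and 0.07 in Mn-exposed samples (two-sided exact permutation p = 0.8, n = 3 each; the smallest p this test allows is 0.1). Its sign turned when control 2, control 4, Mn-exposed 13 or Mn-exposed 17 was left out. Whereas each gene varied 1.62-fold (Opa1) and 1.85-fold (Dnm1l) between its lowest and highest library, their ratio varied 1.15-fold.

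The mitophagy kinase gene Pink1 (ENSRNOG00000015385) is on chromosome 5, minus strand, at 156677146 to 156689415, with 9 merged exons. It was the most abundant of the 6, and its mean CPM was above that of 97.4% of the genes tested. Its level in control 1, 2 and 4 was 471, 311 and 347 CPM, and that in Mn-exposed 13, 14 and 17 was 359, 273 and 197 CPM. Mn-exposed 14 and 17 were below every control, and Mn-exposed 13 lay between control 4 and control 1. The control mean was 376 ± 83.9 CPM and the Mn-exposed mean 277 ± 80.9 CPM (SD, n = 3 each), with a log2 fold change of -0.44 (SE 0.26, edgeR adjusted p = 0.683, unadjusted 0.128). A lower fitted value than that of Pink1 was found in 7.9% of genes tested. The estimate was -0.25 without control 1, the highest library, or without Mn-exposed 17, the lowest, and -0.68 without Mn-exposed 13. In the last of these edgeR fits its unadjusted p was 0.0263, at rank 1497 of 15494 genes, and its adjusted p was 0.272. There 15.2% of genes had an unadjusted p under 0.05.

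Park7 (ENSRNOG00000018289), the gene of DJ-1, is on chromosome 5 as well, minus strand, at 167982439 to 168004724, with 10 merged exons. Its level in control 1, 2 and 4 was 180, 152 and 160 CPM, and that in Mn-exposed 13, 14 and 17 was 166, 147 and 122 CPM. Here too Mn-exposed 14 and 17 were below every control and Mn-exposed 13 was not. The means of 164 ± 14.6 and 145 ± 22.2 CPM (SD, n = 3 each) gave a log2 fold change of -0.18 (SE 0.15, edgeR adjusted p = 0.754). The estimate was -0.07 without Mn-exposed 17, -0.10 without control 1 and -0.29 without Mn-exposed 13. RefSeq lists 3 Park7 pseudogenes in the rat, and how reads with several matches were counted is not given in the sources used here, so the level of Park7 is uncertain to that extent. No annotated gene overlapped Park7 in the files. The 1 gene that overlapped Pink1, on the same strand, had 0 counts in the 6 libraries. As the counting method is not given, this 0 does not show whether reads matching both genes were left out.

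The 250 bases before the RefSeq start of Pink1 and of Park7 are shown because these genes moved together, and that of Tfam because it held one of the motifs searched. All 3 are from the RefSeq promoter table for GRCr8, a later build than that of the counts, and run 5′ to 3′ on the gene's strand; capitals mark a motif match.
Pink1, chr5:155825951-155826200, minus strand: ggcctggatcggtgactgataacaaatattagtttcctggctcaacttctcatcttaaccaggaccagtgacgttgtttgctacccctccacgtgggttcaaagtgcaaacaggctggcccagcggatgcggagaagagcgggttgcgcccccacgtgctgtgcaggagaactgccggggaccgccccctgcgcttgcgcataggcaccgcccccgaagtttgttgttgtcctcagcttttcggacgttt
Park7, chr5:166659826-166660075, minus strand: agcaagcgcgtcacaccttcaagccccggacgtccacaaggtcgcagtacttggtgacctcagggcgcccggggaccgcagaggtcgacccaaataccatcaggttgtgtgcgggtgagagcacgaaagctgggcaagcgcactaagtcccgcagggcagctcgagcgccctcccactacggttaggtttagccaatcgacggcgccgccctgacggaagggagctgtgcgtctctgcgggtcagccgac
Tfam, chr20:17355123-17355372, plus strand: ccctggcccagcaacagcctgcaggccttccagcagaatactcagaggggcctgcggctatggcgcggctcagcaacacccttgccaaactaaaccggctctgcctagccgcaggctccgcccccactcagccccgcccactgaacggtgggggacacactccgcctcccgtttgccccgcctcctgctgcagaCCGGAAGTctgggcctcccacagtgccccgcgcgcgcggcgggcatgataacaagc
Both strands of each window were searched for 4 motifs of factors known to act on genes of mitochondrial biogenesis: the palindrome bound by nuclear respiratory factor 1, CCGGAAGT of ETS factors such as GABPA, AAGGTCA of estrogen-related receptors, and TGACGTCA, the cAMP response element. Of 33469 RefSeq windows of the same length, 0.762% held the first, 3.1% the second, 3.99% the third and 1.59% the fourth. Tfam held CCGGAAGT with its first base 56 bases before the start. Ppargc1a held TGACGTCA with its first base 181 bases before the start, in ctgcctcggagTGACGTCAggagtttgagc at chr14:63634116-63634145 on the plus strand of GRCr8. The windows of Opa1, Dnm1l and Pink1 and the 3 windows of Park7 held none of the 4 exact strings, which says only that these letters are not there. A match is a description of the sequence and not a measured site.

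The coactivator gene Ppargc1a (ENSRNOG00000004473) is on chromosome 14, plus strand, at 63095720 to 63187009, with 13 merged exons and 2737 exonic bases. Its level in control 1, 2 and 4 was 18.0, 25.5 and 22.1 CPM, and that in Mn-exposed 13, 14 and 17 was 15.4, 25.4 and 20.3 CPM. Mn-exposed 13 was lowest of all and control 1 next, while Mn-exposed 14 and control 2 were all but equal at the top. The means were 21.8 ± 3.76 and 20.4 ± 4.98 CPM (SD, n = 3 each), with a log2 fold change of -0.10 (SE 0.21, edgeR adjusted p = 0.9). This sign was not stable: the estimate was 0.01 with library size in place of TMM, 0.03 without control 2 and 0.06 without Mn-exposed 13, against -0.28 without Mn-exposed 14. Over all genes the median log2 fold change was 0.02 with TMM and 0.12 with library size, so relative to that median Ppargc1a was lower under both. The gene spans 91290 bases in the files and 655711 in RefSeq on GRCr8, so transcripts that begin farther upstream may be counted only in part. For the other genes the 2 annotations differed far less, as with Tfam at 12115 and 12050 bases.

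Tfam (ENSRNOG00000000613; chromosome 20, plus strand, 18594037 to 18606151, 7 merged exons) varied least. Its level in control 1, 2 and 4 was 23.7, 21.3 and 22.8 CPM, and that in Mn-exposed 13, 14 and 17 was 25.5, 24.7 and 21.6 CPM. The highest library was 1.2 times the lowest. Mn-exposed 13 and 14 were above every control, and Mn-exposed 17 was below 2 of the 3. The means of 22.6 ± 1.19 and 23.9 ± 2.07 CPM (SD, n = 3 each) gave a log2 fold change of 0.08 (SE 0.12, edgeR adjusted p = 0.846), with 0.03 without Mn-exposed 13 and 0.15 without Mn-exposed 17. With counts of 499 to 678, counting error alone gives a coefficient of variation of up to 4.48%, against 5.25% seen among controls and 8.66% among Mn-exposed samples.

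**Figure D2:**
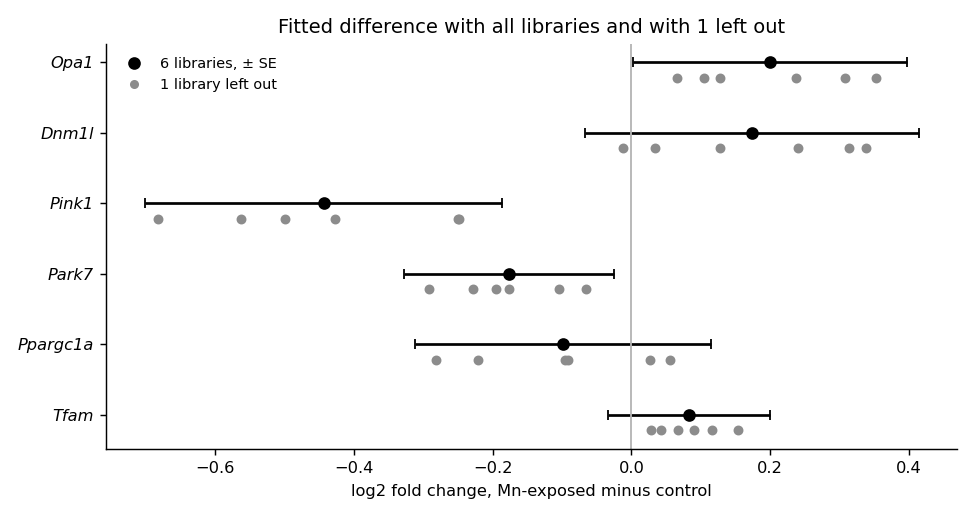
Log2 fold change of Mn-exposed over control from edgeR for the 6 genes, with all 6 libraries (black, bar of ±1 SE) and with each library left out in turn (grey, n = 6 fits). Estimates for Opa1, Tfam, Pink1 and Park7 stay on one side of 0 when a library is left out, and those of Dnm1l and Ppargc1a fall on both sides.

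The clearest order in these values was among the libraries. From the lowest to the highest, both Opa1 and Dnm1l ranked them control 1, Mn-exposed 13, control 4, control 2, Mn-exposed 17 and Mn-exposed 14. Over the 6 libraries log2 CPM of the 2 genes correlated with a Pearson r of 0.98 (p = 0.00139 by exact permutation, 0.0104 after Benjamini-Hochberg adjustment over the 15 pairs of genes) and Spearman rho = 1 (p = 0.00278 by exact permutation, 0.0208 adjusted). Without control 1 and Mn-exposed 13, the libraries farthest from the median of Opa1, r was 0.90. Pairs of genes were examined after their values had been seen.

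Pink1 and Park7 shared the other order, with Mn-exposed 17 lowest, then Mn-exposed 14, control 2, control 4, Mn-exposed 13 and control 1. Their r was 0.99 (p = 0.00139 by exact permutation, 0.0104 adjusted over 15 pairs) and their rho 1 (p = 0.00278 by exact permutation, 0.0208 adjusted), and r was 0.97 without control 1 and Mn-exposed 17. Although they moved together, Pink1 moved more, 2.39-fold from its lowest to its highest library against 1.48-fold for Park7. Opa1 and Pink1 ran in opposite directions, with r = -0.87 (p = 0.0153 by exact permutation, 0.0729 adjusted) and rho = -0.94 (p = 0.0167 by exact permutation, 0.0417 adjusted). Without control 1 and Mn-exposed 13 that r was -0.75. Thus the ratio of Pink1 to Opa1 counts covered a 3.74-fold range over the 6 libraries, and the Opa1 to Pink1 ratio was lowest in control 1 (0.134) and Mn-exposed 13 (0.192) and highest in Mn-exposed 17 (0.502).

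**Figure D3:**
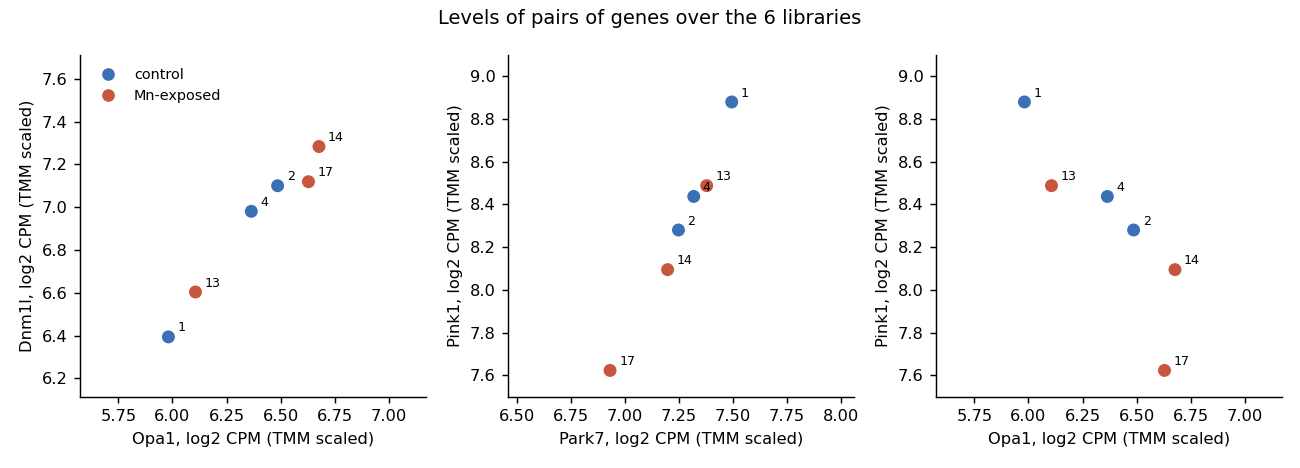
Log2 CPM with TMM scaling of 2 genes against each other in the 6 libraries, numbered by label, with controls in blue and Mn-exposed samples in red. Opa1 and Dnm1l rise together (r = 0.98), Park7 and Pink1 rise together (r = 0.99), and Pink1 falls as Opa1 rises (r = -0.87).

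Such movement was widespread and not particular to these genes. Among 9676 other nuclear genes with a mean of at least 10 CPM, 871 (9.0%) followed Opa1 with r of at least 0.9 and 680 (7.03%) followed Pink1 as closely. Of the 9676, 53 (0.548%) followed Opa1 more closely than Dnm1l did, and 15 (0.155%) followed Pink1 more closely than Park7 did. Both pairs were taken up after the values were seen and had the highest r of the 15 pairs. Their rank among all genes is therefore no separate result. The gene most like Opa1 was ENSRNOG00000028062 (chromosome 13, plus strand, 70174936 to 70183879), with r = 0.998 over 6 libraries. The gene most like Ppargc1a was ENSRNOG00000019450 (chromosome 18, minus strand, 27698695 to 27725694), with r = 0.994. The files do not pair these IDs with names.

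Opa1, Dnm1l and Ppargc1a span 73550, 49242 and 91290 bases, and Pink1, Park7 and Tfam 12270, 22286 and 12115, so the genes that were low in control 1 and Mn-exposed 13 are also the longer ones. With each library's trend on gene span removed, r was 0.98 for Opa1 with Dnm1l, 0.99 for Pink1 with Park7 and -0.88 for Opa1 with Pink1. The range of Opa1 over the libraries was then 1.51-fold in place of 1.62-fold, and that of Pink1 2.36-fold in place of 2.39-fold. Markers of cell types could not be matched to the IDs, so whether the striatal cell types were present in like shares was not tested. In tissue RNA, fewer cells of a type and less RNA per cell cannot be told apart.

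Ratios between the genes take out a scaling factor that all genes of a library share. They do not take out differences between libraries that move genes in opposite directions, as with Opa1 and Pink1. Of the 15 ratios among the 6 genes, 4 had groups that did not overlap, where 11.3% of all pairs among 9682 nuclear genes did so; the 15 share their 6 genes and are not independent. All 4 set a gene of one pair against Ppargc1a or Tfam. Opa1 to Ppargc1a stood at 3.51, 3.52 and 3.73 for control 1, 2 and 4 against 4.46, 4.03 and 4.86 for Mn-exposed 13, 14 and 17, 1.24-fold higher in Mn-exposed samples. Dnm1l to Ppargc1a stood at 4.68, 5.39 and 5.72 in controls and 6.3, 6.14 and 6.84 in Mn-exposed samples, 1.22-fold higher. Every Mn-exposed sample therefore had more counts of Opa1 and of Dnm1l per count of Ppargc1a than any control had. Both ratios share Ppargc1a, whose transcripts may be counted only in part.

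Against Tfam the quality control genes were lower. Pink1 to Tfam was 19.9, 14.6 and 15.2 for control 1, 2 and 4 against 14.1, 11.1 and 9.13 for Mn-exposed 13, 14 and 17, which is 0.686 times the control value. Park7 to Tfam was 7.62, 7.13 and 7.0 in controls and 6.52, 5.95 and 5.65 in Mn-exposed samples, 0.832 times. In all 4 ratios the exact permutation p was 0.1, two-sided, the smallest that 3 samples against 3 allow, and 0.375 after adjustment over the 15. The ratios were examined after the levels had been seen.

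**Figure D4:**
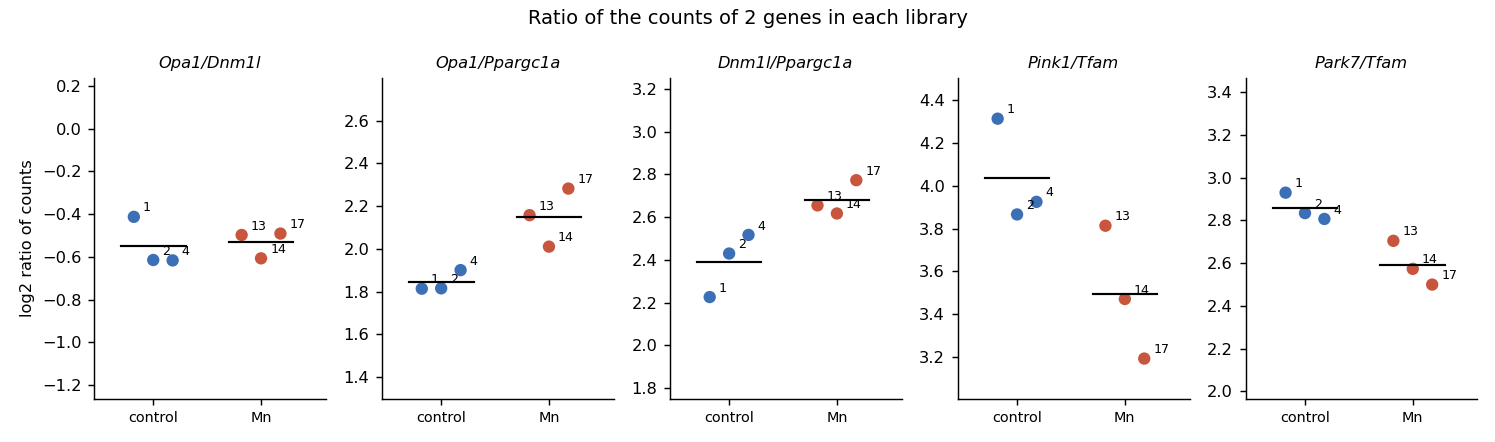
Log2 of the ratio of counts of 2 genes in each library, numbered by label, with the group means as lines and y axes of equal length. The ratio of Opa1 to Dnm1l overlaps between groups, and the other 4, chosen because they do not, are higher (to Ppargc1a) or lower (to Tfam) in all 3 Mn-exposed samples.

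TFAM acts on mtDNA, and PGC-1α drives the programme of which TFAM is a target. The 6 genes were therefore set against the share of counts that fell on the mitochondrial chromosome, called the mtDNA share. It is a share of counts of poly(A)-selected RNA and not an amount of mtDNA. For control 1, 2 and 4 this share was 16.6%, 13.9% and 13.9%, against 13.8%, 8.64% and 12.4% for Mn-exposed 13, 14 and 17. Its group means differed by -3.21 percentage points (two-sided exact permutation p = 0.1, n = 3 each, the smallest possible). The 2 ends were control 1 and Mn-exposed 14, and 3 libraries from both groups lay within a fraction of a point of each other. Counting error is small beside this, as the 95% exact binomial interval of control 1, from 16.58% to 16.61%, shows.

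Opa1 was lower where the share was higher, with r = -0.81 (p = 0.025 by exact permutation, 0.133 adjusted over the 6 genes) and rho = -0.77 (p = 0.103 by exact permutation, 0.204 adjusted). Dnm1l gave r = -0.80 (p = 0.0444 by exact permutation, 0.133 adjusted) and rho = -0.77 (p = 0.103 by exact permutation, 0.204 adjusted). After adjustment neither passed 0.05. For all 6 genes r ran over both groups, and the permutations did not keep the groups apart. It therefore mixes the group difference in the share with the spread within groups. As deviations from the group means, Opa1 and Dnm1l each had the opposite sign to the share in 5 libraries and the same sign in 1. Without control 1 and Mn-exposed 14, farthest from the median share, r was -0.62 for Opa1 and -0.37 for Dnm1l. Among nuclear genes 9.87% had a lower r than Opa1 and 10.6% a lower r than Dnm1l.

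Pink1 and Park7 tended the other way. For Pink1 r was 0.66 (p = 0.157 by exact permutation, 0.314 adjusted) and rho 0.71 (p = 0.136 by exact permutation, 0.204 adjusted), and for Park7 r was 0.57 (p = 0.238 by exact permutation, 0.35 adjusted) and rho 0.71 (p = 0.136 by exact permutation, 0.204 adjusted). Leaving out control 1 alone lowered r to 0.40 for Pink1 and 0.31 for Park7, whereas leaving out control 1 and Mn-exposed 14 together gave 0.95 and 0.93, so the size of r rested on these libraries. Mn-exposed 14 had the lowest share but not the lowest Pink1 or Park7. As deviations from the group means, Pink1 and Park7 each had the same sign as the share in 4 libraries and the opposite sign in 2. A higher r than that of Pink1 was found in 16.0% of nuclear genes.

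For the biogenesis genes the relation changed with the scaling and with single libraries. Ppargc1a gave r = -0.53 (p = 0.292 by exact permutation, 0.35 adjusted) and rho = -0.09 (p = 0.919 by exact permutation, 0.919 adjusted), and its r was -0.66 with library size in place of TMM, -0.70 without control 2, -0.23 without Mn-exposed 14 and 0.13 without control 1 and Mn-exposed 14. Tfam, whose product packages mtDNA and starts its transcription, gave r = -0.19 (p = 0.793 by exact permutation, 0.793 adjusted) and rho = -0.31 (p = 0.564 by exact permutation, 0.677 adjusted). Its r was -0.54 with library size in place of TMM, 0.35 without Mn-exposed 14 and 0.32 without control 1 and Mn-exposed 14. Mn-exposed 14 had the smallest mtDNA share and, at 24.7 CPM, the second highest Tfam level. Deviations from the group means had the opposite sign to the share in 5 libraries for Ppargc1a and in 3 for Tfam. The mtDNA counts are part of the total on which CPM rests. TMM already corrects for such differences in composition, so leaving these counts out before scaling could change little. With these counts left out before scaling, r was -0.81 for Opa1, -0.80 for Dnm1l, 0.66 for Pink1 and 0.57 for Park7. For Ppargc1a it was then -0.52 and for Tfam -0.18. With library size in place of TMM, where the total acts in full, r was -0.84 for Opa1 and -0.85 for Dnm1l. It was 0.62 for Pink1 and 0.42 for Park7. Under each of these scalings 0 of the 6 relations passed an adjusted p of 0.05.

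**Figure D5:**
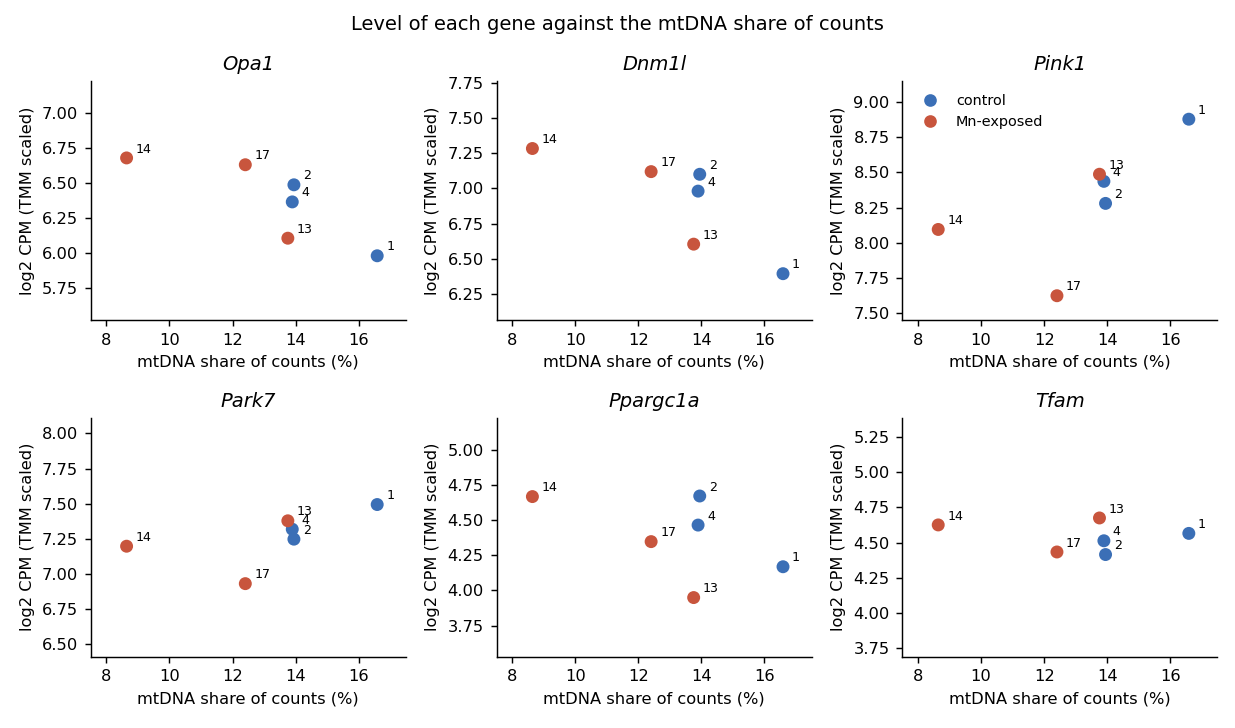
Log2 CPM with TMM scaling of each gene (y axes of equal length) against the percentage of counts on the mitochondrial chromosome in the 6 libraries, numbered by label, with controls in blue and Mn-exposed samples in red. Opa1 and Dnm1l fall with the share (r = -0.81 and -0.80), Pink1 and Park7 tend to rise (r = 0.66 and 0.57), and Tfam is nearly flat (r = -0.19); 0 of the 6 pass 0.05 after adjustment.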

How the data were processed

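Counts per Ensembl gene were deposited by the authors as whole numbers, not normalised, 1 column per sample. Build Rnor_6.0 (rn6) and the tools STAR 2.5.2b, bcl2fastq 2.17 and DESeq2 stand in the submitters' processing notes. How reads were counted, on which annotation, with or without strand and with what treatment of several matches, is not given in the sources used here. The deposited files also give exon positions and exonic length in bases. The series table differed from the sample files in 0 cells. None of the IDs matched a RefSeq table by Ensembl ID (0 matches), so a list of 34 pathway symbols and the cell type markers were not analysed here. The 6 genes and the lists were chosen with earlier results of these data known.

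In R 4.3.3, edgeR 4.0.16 filtered the counts (filterByExpr, 15252 genes), applied TMM scaling and gave the main test (robust quasi-likelihood F-test, Benjamini-Hochberg over all genes, threshold 0.05). Alternatives were DESeq2 1.42.0, limma-voom (limma 3.58.1), other scalings and filters, the ID number as a block, and libraries left out. Single values and correlations were tested with exact permutations. All 6 genes were named whatever their result; the rule for the most similar gene took the highest r among genes of at least 10 CPM. Beside the sample numbers, an ID field in the labels runs from 1 to 3 in each group (control 1 and Mn-exposed 13, 2 and 14, 4 and 17). Deviations from the group means correlated at 0.417, 0.109 and 0.227 within these numbers, each above 0.1, so they were used as the block. Unequal numbers also passed 0.1, at 0.274 for control 2 with Mn-exposed 17 and 0.145 for control 4 with Mn-exposed 14, and the labels state no shared litter or day, so whether the numbers mark pairs is uncertain.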

Additional observations from a re-analysis of the deposited data

How the results depend on the processing

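Counting error was below the spread between libraries in both groups for each of the 6 genes, by least for Tfam (4.48% against 5.25% in controls). The number of the 6 genes past an adjusted p of 0.05 was 0 under each of the 18 alternatives, including DESeq2, limma-voom, a threshold of 0.1 and leaving out control 1 together with Mn-exposed 13. Over all genes the calls at 0.05 were 92 in DESeq2, 291 of 22862 in DESeq2 with the replicate block, 58 of 15378 without control 1 and Mn-exposed 13, and 0 in the other fits, where a 0 among the 6 therefore says little about them. The smallest adjusted p among the 6 genes was 0.18, for Pink1 in DESeq2 with the replicate block. Its unadjusted p there was 0.00921, at rank 737 of 22862 genes, of which 1713 had an unadjusted p under 0.05. Without control 1 and Mn-exposed 13, edgeR gave Pink1 an unadjusted p of 0.0287 and an adjusted p of 0.229. That was rank 1928 of 15378 genes, of which 2692 had an unadjusted p under 0.05. In edgeR with the replicate block Pink1 had a log2 fold change of -0.46 and an unadjusted p of 0.0279, at rank 1343 of 15252 genes. In that fit 13.9% of genes had an unadjusted p under 0.05, and the block changed no call among the 6. Signs turned for Dnm1l without control 1 (-0.012, with a range up to 0.34 when 1 replicate was left out), and for Ppargc1a with library size alone (0.0097), without control 2 (0.027) and without Mn-exposed 13 (0.056, with a range down to -0.28). The difference in the log2 ratio of Opa1 to Dnm1l ran from -0.018 to 0.084 when 1 replicate was left out, and its replicate block value was 0.016. The r of Tfam with the mtDNA share ran from -0.35 to 0.35 when 1 replicate was left out, the highest without Mn-exposed 14, and was -0.54 with library size alone. The mtDNA share difference ran from -4.29 to -1.73 points when 1 replicate was left out. The causes were not tested. The alternatives for r between pairs of genes were chosen after the data were seen, and all kept their sign.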

Other observations

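Within the groups, the small deviations of Tfam followed those of the quality control genes although its group means hardly differed. The deviations of Tfam ran only from -0.14 to 0.10 in log2 CPM. Among controls its coefficient of variation was 5.25%, near the counting error of up to 4.48%. Over the 6 libraries, deviations of log2 CPM from the group means correlated at 0.94 between Tfam and Pink1 and at 0.96 between Tfam and Park7, and those of Ppargc1a at 0.94 with Opa1 and 0.95 with Dnm1l. Without the group means taken out, r was 0.43 for Tfam with Pink1 and 0.77 for Ppargc1a with Opa1. These are descriptions over 6 libraries whose deviations sum to 0 in each group, seen after the other values, and they were not tested. They were picked from the 15 pairs of genes, and how many other genes reach such values was not examined.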
